A study of Homo sapiens with 6 samples.

Results

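S100 genes encode small calcium-binding proteins, and 10 of them were taken as 1 group out of the 19912 gene rows of the mRNA table: S100P, S100A2, S100A3, S100A4, S100A6, S100A10, S100A11, S100A13, S100A14 and S100A16. The group was picked by gene name with values of these libraries already known. The difference between the groups of libraries is therefore given for the 10 genes as a description, without p-values, and where they are counted among the rows past a threshold this is description too. By their labels, the 6 libraries hold RNA of Panc-1, a line grown from a human pancreatic ductal tumour, here with resistance to gemcitabine. The 3 control libraries are labelled ctrl and the other 3 carry the label shSRSF3, a short hairpin against the splicing factor SRSF3. Both groups share the line and the resistance to gemcitabine, a nucleoside drug. Values are the authors' FPKM, fragments scaled by gene length and library total, given as mean ± SD over 3 libraries.

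S100 proteins pair into dimers whose EF-hand loops take up calcium and then expose a surface that grips target proteins such as annexins, ezrin or myosin. S100A10 is an exception, since its loops no longer bind calcium and it stays in the target-binding shape. Most of the family is encoded in a tight chromosomal cluster, several members are secreted, and S100P, S100A4 and S100A6 are widely studied in pancreatic cancer.

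**Figure D1:**
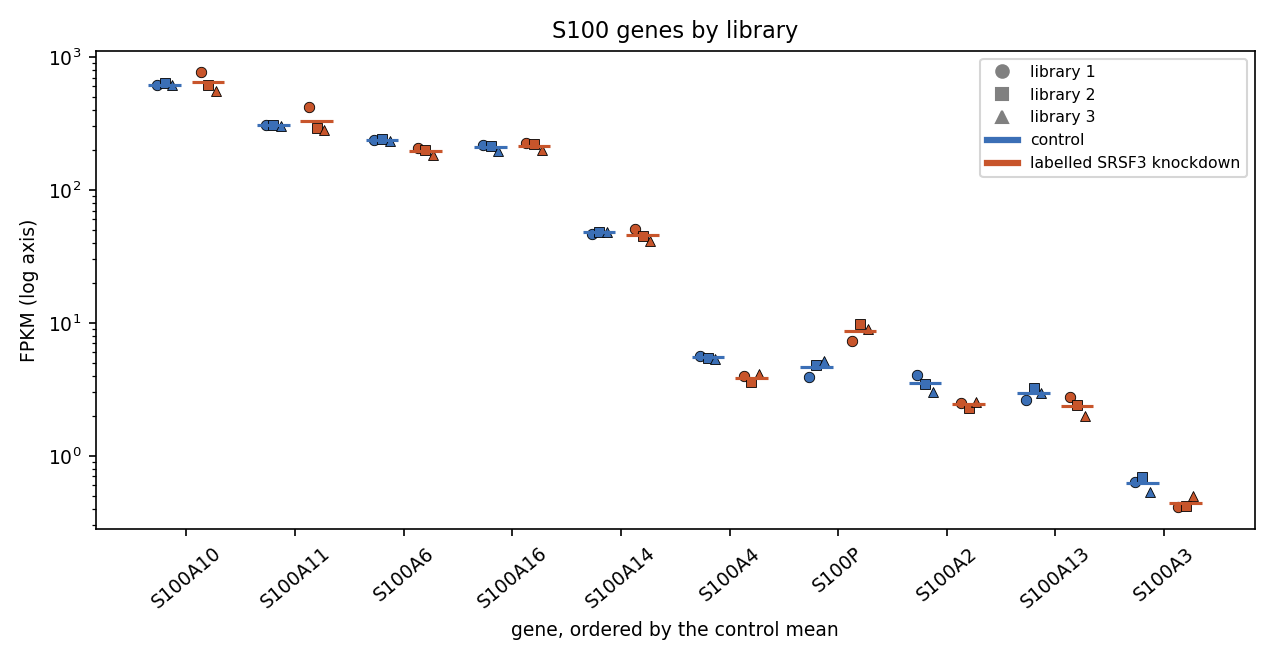
FPKM (log axis) of the 10 genes in each library. Symbols mark library 1, 2 or 3, horizontal bars the group means, blue the controls and orange the libraries labelled knockdown. S100P is the 1 gene whose 3 orange points all lie above the blue ones, and S100A2, S100A3, S100A4 and S100A6 have all orange points below them.

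The S100 genes did not differ in 1 direction. S100P was 1.89 times its control mean in the libraries labelled knockdown, while S100A2, S100A3, S100A4 and S100A6 stood at 0.699, 0.709, 0.706 and 0.828 times theirs. In all 5 of these genes the 2 groups of libraries did not overlap. That is 5 of 10, with 1 higher and 4 lower, against 37.9% of all 10823 rows tested (22.6% higher and 15.3% lower). By limma across the whole table (adjusted p under 0.05), 4 of the 10 genes passed, S100P higher and S100A2, S100A4 and S100A6 lower, where 16.8% of all rows passed (10.9% higher and 5.91% lower). Because the choice of genes used this contrast, nothing is read from either count. The median log2 difference of the 10 was -0.12, beside 0.02 over all rows tested.

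The start regions of the 5 genes whose groups did not overlap are shown first, since S100P lies apart from the other 4 in both position and direction. Each run is the 250 bases before the RefSeq start (GRCh38.p14), 5′ to 3′ on the gene's own strand. Capitals mark a match, on either strand, to one of 5 motifs. The TATA box was searched as TATAAA and the GC box as GGGCGG. The AP-1 site was searched as TGANTCA. The TEAD site was searched as CATTCC, and the last motif was CCAAT. S100P is read from the plus strand of chr4:6693628-6693877. S100A6 (chr1:153535992-153536241), S100A4 (chr1:153545807-153546056), S100A3 (chr1:153549259-153549508) and S100A2 (chr1:153565845-153566094) are read from the minus strand.
S100P: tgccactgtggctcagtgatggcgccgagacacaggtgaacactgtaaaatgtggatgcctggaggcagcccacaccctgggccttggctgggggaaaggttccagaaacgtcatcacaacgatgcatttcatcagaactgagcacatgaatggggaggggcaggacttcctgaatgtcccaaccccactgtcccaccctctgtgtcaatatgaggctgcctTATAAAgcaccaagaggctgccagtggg
S100A6: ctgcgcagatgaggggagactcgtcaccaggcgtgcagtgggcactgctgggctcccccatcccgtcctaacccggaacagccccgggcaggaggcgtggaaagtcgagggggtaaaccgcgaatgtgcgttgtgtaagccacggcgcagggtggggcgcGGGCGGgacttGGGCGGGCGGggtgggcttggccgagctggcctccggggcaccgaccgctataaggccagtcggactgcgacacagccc
S100A4: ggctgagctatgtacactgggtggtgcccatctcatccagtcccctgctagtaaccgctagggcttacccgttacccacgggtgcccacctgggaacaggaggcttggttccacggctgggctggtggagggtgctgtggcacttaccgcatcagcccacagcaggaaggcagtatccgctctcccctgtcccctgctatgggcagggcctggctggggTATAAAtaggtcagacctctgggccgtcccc
S100A3: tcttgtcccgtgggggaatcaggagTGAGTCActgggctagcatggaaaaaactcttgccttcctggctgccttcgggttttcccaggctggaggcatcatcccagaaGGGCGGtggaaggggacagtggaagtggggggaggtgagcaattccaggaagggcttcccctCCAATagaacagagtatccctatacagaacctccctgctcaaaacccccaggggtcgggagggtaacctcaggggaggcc
S100A2: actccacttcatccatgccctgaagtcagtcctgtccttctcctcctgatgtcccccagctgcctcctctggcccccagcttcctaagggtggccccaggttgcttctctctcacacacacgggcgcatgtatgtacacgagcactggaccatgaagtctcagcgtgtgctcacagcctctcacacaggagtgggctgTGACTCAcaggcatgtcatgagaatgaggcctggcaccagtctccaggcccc

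A TATAAA stands 28 to 23 bases before the start in S100P, which was higher. It stands 31 to 26 bases before the start in S100A4, which was lower. Among all 27305 promoters of the same length, 11.2% hold it. S100A6 has 3 GGGCGG matches between 90 and 70 bases before its start, 2 of them sharing bases. It holds 24 CpG dinucleotides, as does S100A10, against a median of 10 over all promoters and 4 in each of S100P, S100A2 and S100A3. The AP-1 match occurs in S100A2, 52 to 46 bases before the start, and farther out in S100A3, while 6.57% of all promoters hold it. CCAAT (33.0% of all promoters) occurs in S100A3, and CATTCC in S100A16, which is not printed. GGGCGG (42.2%) occurs in 5 of the 10 genes. No letter pattern searched here was shared by the 4 lower genes. Any tie between these patterns and the differences was not tested. S100A2 has 2 starts in the RefSeq table, and the outermost is shown.

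**Figure D2:**
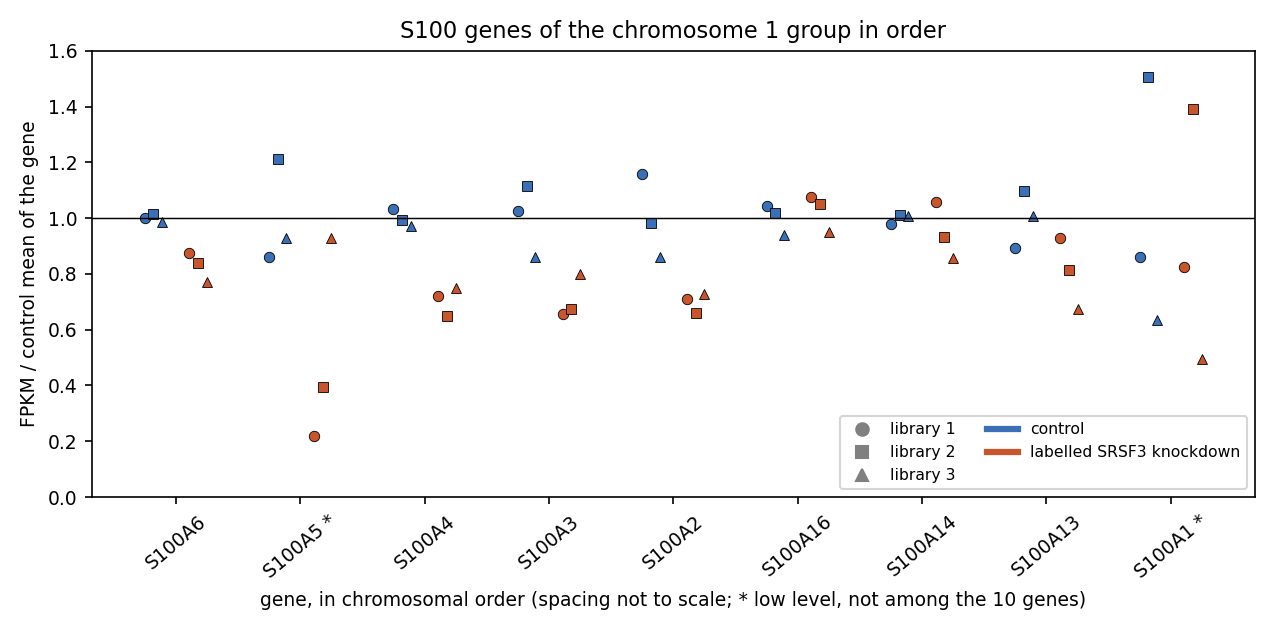
FPKM of each library divided by the control mean of the gene, for the 9 S100 genes from S100A6 to S100A13 and S100A1 in their order on chromosome 1; asterisks mark 2 genes of low level that are not among the 10. The orange points of S100A6, S100A4, S100A3 and S100A2 lie below all blue points of the same gene, and those of S100A16, S100A14 and S100A13 overlap the blue ones.

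The 4 genes with all libraries labelled knockdown below all controls are close neighbours. By RefSeq annotation, 9 protein-coding genes run from S100A6 to the pair S100A13 and S100A1 on chromosome 1, and all 9 are S100 genes. In order these are S100A6, S100A5, S100A4, S100A3, S100A2, S100A16, S100A14, S100A13 and S100A1. These 4 genes and S100A5 fill the first 5 places. The next 3 members, S100A16, S100A14 and S100A13, stood at 1.03, 0.949 and 0.806 times their control means with overlapping groups, so the ratio of S100A13 at the far end was below the 0.828 of S100A6. Without knockdown library 1, S100A14 and S100A13 stood at 0.895 and 0.745. That library was the only knockdown library not below all controls in these genes, so leaving it out had to separate the groups. The share of all rows that separate in this way was not counted, so nothing is read from it about position. S100A10 and S100A11 are next to each other but lie apart from this run, with 52 protein-coding genes between S100A11 and S100A6. S100P is on chromosome 4.

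S100A6 (calcyclin), which binds the ubiquitin-ligase adaptor CACYBP, was the most abundant of the lower genes. In FPKM, control libraries 1 to 3 read 236, 239.5 and 233, and knockdown libraries 1 to 3 read 207, 198 and 182. All 3 libraries labelled knockdown were below all controls. The means were 236 ± 3.19 and 196 ± 12.5 FPKM (SD, n = 3), from at least 4789 fragments per library. Between libraries the coefficient of variation was 1.35% in controls and 6.41% in the libraries labelled knockdown, where counting alone gives 1.30% and 1.43%. The control libraries of S100A6 thus spread about as much as fragment counting gives, and the others more.

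S100A4 (metastasin), which binds non-muscle myosin and is known from invasive tumour cells, was present at a far lower level. Its controls read 5.68, 5.46 and 5.35 FPKM, and the libraries labelled knockdown 3.96, 3.56 and 4.11 FPKM. The groups stood clear of each other, at 5.50 ± 0.169 and 3.88 ± 0.281 FPKM, from 143 to 150 and 91 to 115 fragments. The coefficient of variation of S100A4 between libraries was 3.07% and 7.26%, less than the 8.30% and 9.84% that counting alone gives. S100A2, a gene of basal epithelial cells, read 4.05, 3.45 and 3.01 FPKM in controls, then 2.49, 2.31 and 2.55 FPKM under the knockdown label. Its control libraries were the more spread, with a coefficient of variation of 15.0% against 5.16%, and the lowest control was still above the highest of the others. The means of S100A2 were 3.50 ± 0.524 and 2.45 ± 0.126 FPKM.

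S100A3, best known from the hair cuticle, was the scarcest of the 10. It read 0.640, 0.696 and 0.536 FPKM in controls, then 0.409, 0.420 and 0.499 FPKM under the knockdown label. These rest on only 14 to 17 and 10 to 13 fragments, for which counting alone gives a coefficient of variation of 25.5% and 30.2%. The S100A3 libraries of each group thus spread less than counting alone gives, and the gap between the nearest libraries of the 2 groups is 1 fragment. Its mean was just above the minimum of 0.5 FPKM for testing.

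S100A5, between S100A6 and S100A4 and not among the 10, is the 1 further S100 gene that reached that minimum. It read 0.779, 1.10 and 0.839 FPKM in controls, then 0.199, 0.359 and 0.841 FPKM under the knockdown label. Knockdown libraries 1 and 2 were below all controls and library 3 was inside their range, with 4, 7 and 18 fragments. S100A5 did not pass the test (log2 -0.40, SE 0.14, limma adjusted p = 0.0704). It passed without knockdown library 3, the library inside the control range (limma adjusted p = 0.00424). Without control library 1, 2 or 3 or knockdown library 1 or 2 it did not (limma adjusted p of 0.103, 0.2, 0.141, 0.176 and 0.186). Its gene model overlaps that of S100A4 in the RefSeq table, so fragments of the overlap could have been given to either.

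S100P, named for the placenta and a binding partner of ezrin and of the scaffold IQGAP1, was the 1 gene of the group that was clearly higher. Its controls read 3.91, 4.80 and 5.14 FPKM and the libraries labelled knockdown 7.32, 9.85 and 8.99 FPKM. The lowest of the latter was above the highest control. The means were 4.62 ± 0.634 and 8.72 ± 1.29 FPKM, from 123 to 180 and 240 to 314 fragments. Its log2 difference of 0.79 was the 10th highest of the 10823 rows tested. Without knockdown library 1, which was the lowest of the 3, S100P stood at 2.04 times its control mean.

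**Figure D3:**
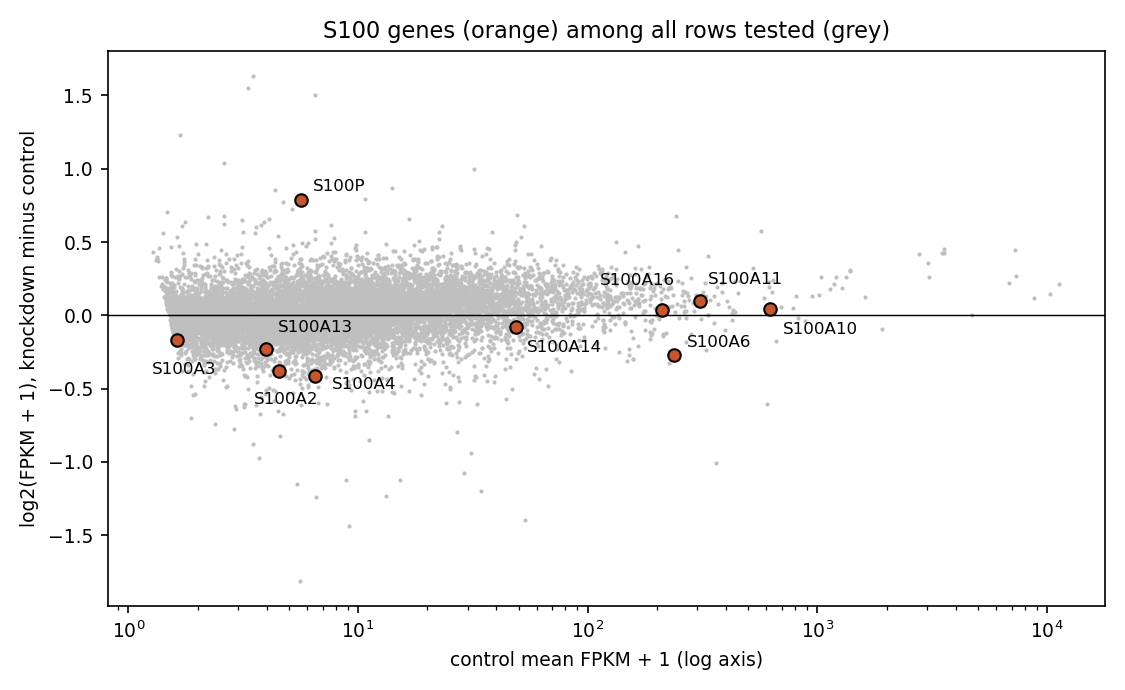
Difference in log2(FPKM + 1), knockdown minus control, against the control mean FPKM + 1 (log axis) for all 10823 rows tested (grey) and the 10 S100 genes (orange, named). S100P lies at 0.79, near the top of the cloud, and S100A4 and S100A2 at -0.41 and -0.38, near its lower edge.

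By the root mean square distance between log2(FPKM + 1) profiles over the 6 libraries, centred on the control mean, the rows nearest to S100P were TERF2IP (0.129), RGS2 (0.143), CYP26B1 (0.160), TAGLN (0.179) and CHI3L1 (0.201). TERF2IP is a row off the whole-fragment steps, so its values may not be plain expression. RGS2, a regulator of G-protein signalling, was at 4.16 ± 0.531 and 7.51 ± 0.282 FPKM. CYP26B1, which breaks down retinoic acid, was at 3.69 ± 0.175 and 7.03 ± 0.297 FPKM. TAGLN, an actin-binding protein of contractile cells, was at 1.61 ± 0.190 and 3.16 ± 0.246 FPKM, and CHI3L1, a secreted glycoprotein, at 3.07 ± 0.311 and 5.42 ± 0.380 FPKM. All of these values are means and SDs of controls first and of the libraries labelled knockdown second.

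The abundant S100 genes other than S100A6 showed no common shift. S100A10, the annexin A2 partner, was the highest of all, ranking 34th in the table by control mean. Its controls read 617, 632 and 612 FPKM and the libraries labelled knockdown 764, 612 and 558 FPKM. Knockdown library 1 was above all controls and library 3 below them. The means of S100A10 were 620.3 ± 10.8 and 645 ± 107 FPKM.

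S100A11 (calgizzarin), a partner of annexin A1, ranked 70th, and its libraries labelled knockdown came in the same order as for S100A10. It read 308, 307 and 302 FPKM in controls, then 422, 294 and 282 FPKM under the knockdown label. The group means were 306 ± 3.06 and 333 ± 77.8 FPKM. Without library 1, S100A11 stood at 0.942 times its control mean with both remaining libraries below the controls. The RefSeq table lists 10 pseudogenes of S100A11, and the handling of shared fragments is not stated.

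S100A16, a widely expressed member, ranked 116th at 210.5 ± 11.4 and 216 ± 14.1 FPKM. Its controls read 219.6, 214 and 198 FPKM, and the others 227, 221 and 199.9 FPKM, so the groups lay almost on top of each other. S100A14, a gene of epithelial cells, read 47.0, 48.5 and 48.3 FPKM in controls. Its other libraries read 50.6, 44.7 and 41.1 FPKM, with library 1 above and libraries 2 and 3 below all controls. With quantile normalization the log2 differences of S100A10, S100A11 and S100A16 turned from 0.04, 0.10 and 0.04 to -0.12, -0.01 and -0.08, so no direction is given for these 3 genes.

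S100A13, which helps export FGF1 and IL1A without a signal peptide, read 2.65, 3.25 and 2.99 FPKM in controls. The libraries labelled knockdown read 2.75, 2.41 and 2.0 FPKM, so that only library 1 reached into the control range. The means were 2.96 ± 0.302 and 2.39 ± 0.374 FPKM, a ratio of 0.806. The S100A13 model overlaps S100A1 on the opposite strand. Use of strand in the counting is not stated, so fragments of the 2 genes cannot be told apart there.

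Knockdown library 1 stood apart in more than the S100 genes. Its FPKM values summed to 336887, against 308101 and 287148 in knockdown libraries 2 and 3 and 275359 to 285701 in controls. All 3 libraries labelled knockdown thus had a larger sum than every control. Mitochondrial mRNAs held 32.1% of the sum in knockdown library 1, against 25.6% to 27.5% in the other 5 libraries. In each of S100A10, S100A11, S100A13, S100A14, S100A16 and S100A6 the libraries labelled knockdown came in the order of these sums, with library 1 the highest. In S100P, S100A2, S100A3 and S100A4 they did not, and the share of all rows in that order was not counted. The part of these sums in the S100 values and in the other ratios given here was not tested. S100P, S100A2, S100A3, S100A4 and S100A6 kept their ratios without knockdown library 1, at 2.04, 0.693, 0.736, 0.698 and 0.804.

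As shares of the summed FPKM of all S100 rows, 5 genes (S100A10, S100A11, S100A6, S100A16 and S100A14) held between 98.5% and 98.9% in every library. S100A10 alone held 42.7% to 43.3% in controls and 43.5% to 45.3% in the others. The S100A6 share was 16.3%, 16.4% and 16.5% in controls and 12.2%, 14.3% and 14.2% in the libraries labelled knockdown. S100P held 0.271% to 0.364% in controls and 0.433% to 0.709% in the others, so its difference left the sum of the family nearly untouched. Such comparisons between genes rest on the lengths behind the FPKM values, which run from 680 bases (S100A11) to 2216 bases (S100A13) as recovered from the value steps.

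Of the 11 other S100 genes, S100A5 alone averaged at least 0.5 FPKM. S100A7, S100A7A, S100A7L2, S100A8 and S100B were listed at 0 in all 6 libraries. S100A12 and S100G were above 0 in 1 library each. S100A9, which pairs with S100A8 in myeloid cells, had 2 to 12 fragments per library and S100A1, known from heart muscle, had 7 to 20. Of 7 fused-type S100 genes, which carry an S100 domain on a long repeat protein of the skin barrier, 3 were tested and 0 passed in limma, with 0 also at an unadjusted p under 0.05. TCHH was at 5.43 ± 0.300 and 5.18 ± 0.239 FPKM (limma adjusted p = 0.554), a level near that of S100A4 in controls. FLG was at 1.22 ± 0.159 and 1.46 ± 0.248 FPKM (limma adjusted p = 0.265), and HRNR at 0.735 ± 0.0526 and 0.813 ± 0.175 FPKM (limma adjusted p = 0.640).

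**Figure D4:**
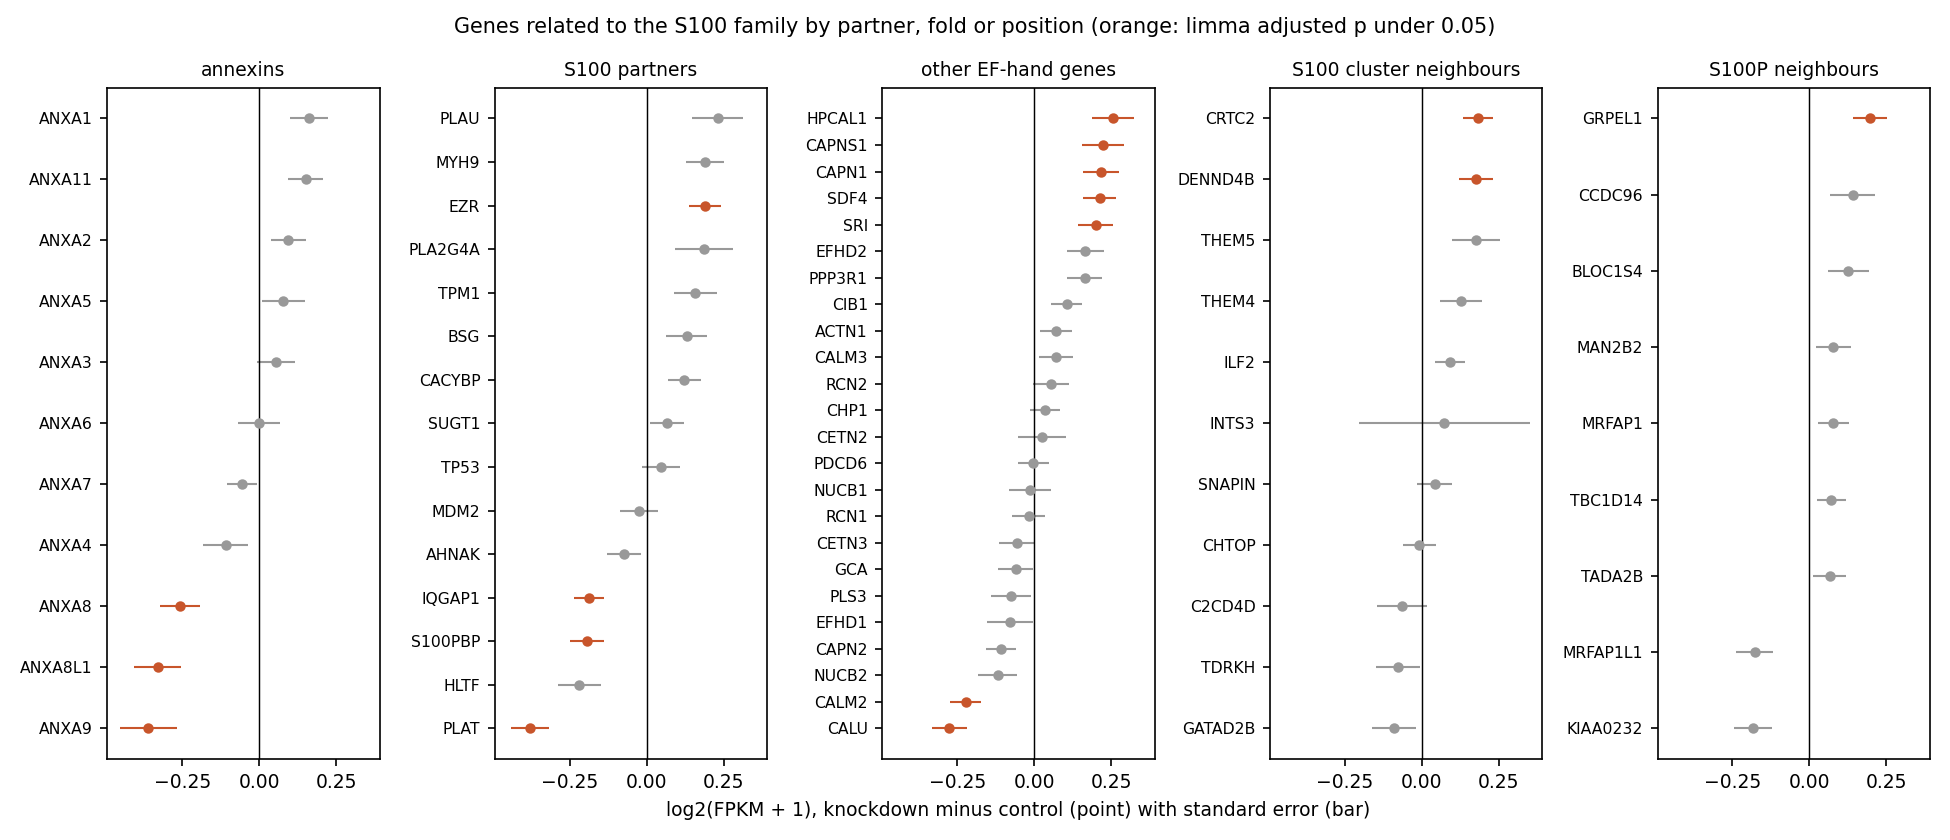
Difference in log2(FPKM + 1), knockdown minus control, with its standard error, for the tested genes, 1 left undrawn, of 5 lists of annexins, binding partners, other EF-hand proteins and chromosomal neighbours; orange marks a limma adjusted p under 0.05. PLAT, at -0.38, and CALU, at -0.28, are among the lowest, and GRPEL1, at 0.20, is the highest neighbour.

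Genes tied to the S100 family by partner, fold or position were taken from 7 lists with 112 rows, of which 75 were tested and 9 rose and 8 fell (22.7% called, where 16.8% of all rows were). These lists were chosen with earlier results of the same data known, so nothing is read from that share. Among 11 tested annexins, the calcium-dependent membrane binders that many S100 dimers hold, 3 fell and 0 rose (median log2 change -0.0005). The S100A10 partner ANXA2 was at 120.5 ± 0.936 and 129 ± 8.38 FPKM and did not pass (limma adjusted p = 0.275). Per length, S100A10 was 5.15 ± 0.0523 times ANXA2 in controls and 4.98 ± 0.497 times in the others, a difference below the spread of the latter. ANXA1 was at 10.8 ± 0.238 and 12.2 ± 0.981 FPKM (limma adjusted p = 0.0912).

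The annexins that fell were of low level. ANXA9 fell from 5.03 ± 0.462 to 3.71 ± 0.603 FPKM, a log2 change of -0.36 ± 0.09 (SE) with a limma adjusted p = 0.0257. Leaving out control library 1, control library 2 or knockdown library 2 ended the ANXA9 call (limma adjusted p of 0.0827, 0.0956 and 0.0944), as did the lack of a filter (0.0985). ANXA8 and its near-identical copy ANXA8L1 had limma adjusted p of 0.0235 and 0.0181, from 0.645 ± 0.0559 to 0.377 ± 0.0183 FPKM and from 0.767 ± 0.138 to 0.403 ± 0.0685 FPKM. Fragments of this pair could have been split between the copies. Without knockdown library 2 their limma adjusted p were 0.0585 and 0.0507, and without control library 1 that of ANXA8L1 was 0.0638.

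Of 15 tested partners 1 rose and 3 fell (median log2 change 0.07). PLAT, the tissue plasminogen activator that docks on S100A10, fell from 4.71 ± 0.281 to 3.38 ± 0.151 FPKM, a log2 change of -0.38 ± 0.06 (SE) with a limma adjusted p = 0.00381, and it passed in all 13 alternatives that tested it. AHNAK, a giant scaffold held by S100A10 and ANXA2, was at 103.5 ± 2.89 and 98.4 ± 5.19 FPKM (limma adjusted p = 0.376).

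EZR (ezrin), a link of membrane to actin, rose from 228 ± 2.35 to 260.5 ± 7.58 FPKM (log2 0.19, limma adjusted p = 0.0356). S100PBP, a nuclear S100P-binding protein, fell from 3.80 ± 0.0306 to 3.19 ± 0.123 FPKM (log2 -0.19, limma adjusted p = 0.0396), and IQGAP1 from 19.6 ± 0.158 to 17.1 ± 0.687 FPKM (log2 -0.19, limma adjusted p = 0.0272). Of these 3 known partners of S100P, then, 1 was higher and 2 were lower. None of the 3 calls held without control library 1, 2 or 3 or knockdown library 2. Without each of these in that order the limma adjusted p was 0.0980, 0.157, 0.145 and 0.106 for EZR. For S100PBP it was 0.0942, 0.129, 0.137 and 0.115, and 0.0741 without knockdown library 1. For IQGAP1 it was 0.0726, 0.109, 0.107 and 0.0975. EZR was also lost with quantile normalization (0.123) and, like S100PBP, with no filter (0.0567 and 0.0739).

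The S100A6 partner CACYBP was at 33.2 ± 0.947 and 36.3 ± 2.11 FPKM and did not pass (limma adjusted p = 0.146). The ratio of S100A6 to CACYBP was 7.34, 7.04 and 6.96 in controls and 5.34, 5.64 and 5.20 in the libraries labelled knockdown. MYH9, the non-muscle myosin heavy chain bound by S100A4, was at 100.7 ± 5.26 and 115 ± 7.32 FPKM (limma adjusted p = 0.0610). In both partners all 3 libraries labelled knockdown were above all controls. Among the 15 tested partners the groups did not overlap in 6 higher and 4 lower, against 22.6% higher and 15.3% lower over all rows tested. S100A6 and S100A4 thus had lower values in libraries where CACYBP and MYH9 were not lower.

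Other EF-hand genes moved both ways, with 5 of 25 higher and 2 lower and a median log2 change of 0.03. CALU, a calcium binder of the secretory pathway, fell from 50.8 ± 1.10 to 41.8 ± 2.79 FPKM, a log2 change of -0.28 ± 0.06 (SE) with a limma adjusted p = 0.0102. CALM2, a calmodulin gene, fell from 43.7 ± 0.861 to 37.3 ± 1.49 FPKM (log2 -0.22, limma adjusted p = 0.0141). Without control library 2 the limma adjusted p was 0.0536 for CALU and 0.0778 for CALM2, and without control library 3 that of CALM2 was 0.0654. CAPN1, the large subunit of the protease calpain, rose from 100.7 ± 4.58 to 117 ± 6.11 FPKM (log2 0.22, limma adjusted p = 0.0298), and SDF4, a Golgi calcium binder, from 64.0 ± 1.74 to 74.4 ± 3.80 FPKM (log2 0.21, limma adjusted p = 0.0234). Neither passed without control library 1, 2 or 3 or knockdown library 2, where the limma adjusted p of CAPN1 was 0.0567, 0.104, 0.138 and 0.111 and that of SDF4 was 0.0551, 0.0956, 0.108 and 0.0727. With quantile normalization they were 0.0947 and 0.0792, and with no filter 0.0676 and 0.0510.

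Genes beside the S100 genes are given by their counts, and 16.8% of all rows passed. Of 11 tested genes on either side of the chromosome 1 S100 genes, 2 rose and 0 fell (median log2 change 0.07). These were CRTC2, a CREB coactivator, at 13.4 ± 0.316 and 15.4 ± 0.476 FPKM (log2 0.18, limma adjusted p = 0.0310), and DENND4B, an exchange factor for Rab proteins, at 14.1 ± 0.870 and 16.1 ± 0.131 FPKM (log2 0.18, limma adjusted p = 0.0494). The CRTC2 call ended without control library 1, 2 or 3 or knockdown library 2 (limma adjusted p of 0.0603, 0.134, 0.122 and 0.0671) and with quantile normalization (0.0946). The DENND4B call ended without control library 2 or 3 or knockdown library 1 or 2 (limma adjusted p of 0.164, 0.203, 0.0745 and 0.125), and with quantile normalization (0.113), median scaling (0.0592) or no filter (0.0826). ILF2, an RNA-binding factor, was at 100.8 ± 0.329 and 107 ± 3.11 FPKM (limma adjusted p = 0.210). Of 9 tested neighbours of S100P, 1 rose and 0 fell (median log2 change 0.08). GRPEL1, a mitochondrial import cochaperone, rose from 19.3 ± 0.777 to 22.3 ± 1.11 FPKM (log2 0.20, limma adjusted p = 0.0336), and lost its call without control library 1, 2 or 3 or knockdown library 1 or 2 (limma adjusted p of 0.0585, 0.161, 0.102, 0.0696 and 0.0871), with quantile normalization (0.0912) and with no filter (0.0662). MRFAP1L1 and KIAA0232 did not pass (limma adjusted p of 0.0688 and 0.0697). They were at 21.1 ± 1.21 and 18.6 ± 1.15 FPKM and at 7.47 ± 0.515 and 6.46 ± 0.314 FPKM, with all 3 libraries labelled knockdown below all controls. MRFAP1, a further neighbour, was at 143 ± 4.46 and 151 ± 2.85 FPKM (limma adjusted p = 0.316), with all 3 above all controls. Of the 9 tested neighbours, the groups did not overlap in 3 higher and 2 lower, against 22.6% higher and 15.3% lower over all rows tested.

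Some facts of the series bear on all of these values. SRSF3 itself was at 38.6 ± 1.40 and 37.5 ± 0.900 FPKM, controls first (log2 -0.04, limma adjusted p = 0.612), so every direction here is that of a label and not of a measured fall of SRSF3. The name of the line rests on the labels. Of 9 ductal epithelial markers 8 were at or above 0.5 FPKM, with KRT8, KRT18 and KRT19 abundant, and KRT7 was at 0.0895 to 0.241 FPKM. Control means of EPCAM and CDH1 were 176 and 82.3 FPKM. VIM (vimentin), a gene PANC-1 is known to express strongly and chosen here after its values were seen, was at 0.00709 to 0.0389 FPKM. ACTN4, an actinin that nearly every cell uses and also chosen after its values were seen, was at 0.0240 to 0.0704 FPKM, so a row near 0 in this table need not mean that a gene is silent, and the line was not checked further. Leukocyte markers summed to 2.55 to 3.00 FPKM in controls and 2.72 to 2.88 FPKM in the others, nearly all CD14, with PTPRC, LYZ and MS4A1 at 0. Fibroblast markers summed to 0.383 to 0.446 FPKM and 0.304 to 0.423 FPKM, with COL1A2 and PDGFRA at 0, and acinar and islet markers to 0.0574 to 0.751 FPKM and 0.0642 to 0.117 FPKM, with INS, GCG, SST and CELA3A at 0. In a bulk sample, fewer cells expressing an S100 gene and less RNA of it per cell cannot be told apart. Over all rows 1179 were higher and 640 lower, and with quantile normalization 817 and 808. The labels do not say whether the libraries of a group are separate cultures, so their spread, on which the p-values rest, may be technical.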

How the data were processed

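The authors deposited FPKM per gene symbol, per the file headers. HISAT2, StringTie, Cuffdiff and edgeR are named, without role or version, per the submitters' processing notes. The build, annotation and use of strand were not found in the labels or headers used here. Per the labels' protocols, both a poly-A and a stranded rRNA-depleted preparation were made, and which one gave these values is not given. The lncRNA table was not used, since it holds no S100 gene.

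Whole fragments were recovered from the value steps (1 total per library, 1 length per gene, within 0.003 fragments plus 3e-08 per fragment). This succeeded for 14776 of 14803 rows above 0 in at least 3 libraries, including all 10 S100 genes; the other 27 are off these steps. Totals ran from 24558238 to 27351642 fragments, so 1 FPKM is 24.6 to 27.4 fragments per kilobase. Between libraries of a group the chi-square per gene was 3.18 to 29.3, so none was a copy of another.

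The test was limma 3.58.1 (R 4.3.3; two-sided, trended eBayes) on log2(FPKM + 1) for the 10823 rows averaging 0.5 FPKM or more, with p adjusted by Benjamini-Hochberg over these rows and a threshold of 0.05. Differences on this scale understate changes of low genes. On simulated data 96 of 100 genes changed 1.5-fold and 17 of 10599 unchanged genes were called, of 10799 simulated. These rates hold for the spread set in the simulation and are not taken as rates for the real libraries. There, the coefficient of variation under the knockdown label was 16.6% for S100A10 and 23.4% for S100A11. In controls it was 1.74% and 1.00%. The 10 genes and all lists were chosen with earlier results of these data known. By rule, genes to name were every S100 gene above 0.5 FPKM, SRSF3, up to 6 genes of each list with the smallest p, the known partners of the 10 and the 5 profiles nearest to S100P; not all of the list genes are given. The 14 alternatives changed the pseudocount, filter, scaling, model or 1 library. Scripts ran on Python 3.11.15 (numpy 2.4.6, pandas 2.3.3). Promoters and gene order come from RefSeq tables (GRCh38.p14), in which all 10 genes were found. Coordinates are given for those sequences alone. The values of 1 EF-hand gene are counted in its list but not reported here.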

Additional observations from a re-analysis of the deposited data

How the results depend on the processing

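S100P, S100A2, S100A3, S100A4, S100A6, S100A13 and S100A14 kept the sign of their difference in every alternative that included them. S100A10, S100A11 and S100A16 did not: their log2 differences ran from -0.12 to 0.14, -0.09 to 0.20 and -0.08 to 0.09. The S100P difference ran from 0.69 to 0.91. The median over the 10 genes was -0.12, and 0.039 at a mean of at least 5 FPKM, where 6 of the 10 genes were left and 2 of those passed. Leaving out 1 library at a time gave a median of -0.16 to -0.08 and 3 to 5 of the 10 genes past the threshold. S100A6 was lost without control library 1, 2 or 3, and S100A2 without knockdown library 2 and with no filter. The count over the 7 lists was 17, and 7 with no filter, and leaving out 1 library gave 2 to 25: 5, 2 and 4 without control libraries 1, 2 and 3, and 3 without knockdown library 2. Over all tested rows, 1819 passed, 960 with no filter and 643 to 2742 with 1 library left out. The replicate block gave 2323 rows, the same 4 of the 10 S100 genes and 24 list genes, S100A5 among them (limma adjusted p = 0.0442). Deviations of same-numbered libraries correlated at 0.08, 0.04 and 0.28, and control library 1 correlated best with knockdown library 2, so the numbers are not taken as pairs. S100A3, S100A5, S100A9 and S100A1 rest on at most 22 fragments in any library.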
